A study of Mus musculus with 8 samples.

Results

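The genes described here encode proteins that leukocytes and antigen-presenting cells carry on or near their surface, together with the major histocompatibility complex (MHC), measured in mouse liver. Members were chosen by name only: a probe counted when its identifier carried the NCBI Gene ID of a mouse gene whose symbol is Cd followed by a digit or starts with H2-, Fcgr, Fcer, Itga, Itgb, Tlr or Clec. This gave 108 probes for 95 genes among the 24048 probes of the array, out of 239 genes whose symbol matches the rule. The rule goes by symbol, so it also took 4 genes whose proteins are not leukocyte surface molecules: H2-Ke6, a steroid dehydrogenase gene that lies within the MHC, Cd3eap, an RNA polymerase I subunit, Itgb1bp1, a cytoplasmic protein that binds an integrin tail, and Itgbl1, a secreted protein with integrin-like repeats. They form a role of their own but are included in every total over the members.

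Liver RNA of 8 male mice aged 23 weeks was hybridised to a 1-colour Illumina bead array, 1 array per animal. Of these, 4 carried a Gpx3 transgene, which encodes a secreted glutathione peroxidase, and 4 were wildtype animals of B6/DBA background. All 8 ate chow with 4% fat until 11 weeks of age and 6% fat from then on. The labels used here do not name the promoter that drives the transgene, and no probe carries the Gene ID of Gpx3, so its level gives no check of the labels. Sample titles carry 3 stems, for transgenic animals 1 to 3, transgenic animal 4 and the 4 wildtype animals, whose meaning is not stated. No stem is shared between the groups, so what the stems mark and the genotype cannot be told apart.

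MHC class I molecules sit on nearly all nucleated cells and show peptides, mostly cut from the cell's own proteins by the proteasome, to CD8 T cells. MHC class II molecules are made mainly by antigen-presenting cells and show peptides of engulfed proteins to CD4 T cells, and the invariant chain Cd74 and the H2-DM proteins control when such a peptide is loaded. Liver holds resident macrophages (Kupffer cells), lymphocytes and a sinusoidal endothelium that itself takes up immune complexes and displays lectins, next to the far more numerous hepatocytes.

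Whole liver was measured, so fewer cells of a type and less RNA per cell cannot be told apart in any value given here. Signals are the deposited background-subtracted intensities in arbitrary units, and between 33.1% and 35.3% of each array's values lay below 0. A probe was taken as above background on an array when it exceeded the 99th percentile of noise mirrored from the values below 0, which lay between 25.4 and 37 units. By that measure 35.4% to 38.2% of all probes were above background on an array. Median signals of the 8 arrays ran from 11 to 14.2 units. Of the hepatocyte markers, Apoa1 read 33749 to 37065 units on the 8 arrays, while Serpina1e ranged from 20414 to 33464 units except in transgenic animal 2, at 409 units.

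Most members were not detected in liver RNA. Of the 108 probes, 30 (27.8%), for 29 genes, were above background on all 8 arrays, 19 (17.6%) on 1 to 7 arrays and 59 (54.6%) on none. Over all 24048 probes the shares were 30.3%, 15.5% and 54.1%, so the members were detected about as often as the array's probes at large. The 30 probes became 32 with a 95th percentile of noise, 37 with a limit of 16 units and 20 with a limit of 100 units. A probe at background says that its signal was not measured here, not that the gene was silent.

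Detection was uneven across roles, as the plot of probes by role shows. MHC class I had 10 of 21 probes above background on all 8 arrays, MHC class II 3 of 6 and the tetraspanins, small membrane proteins that organise other surface molecules, 4 of 5. The 7 probes for T and NK cell surface genes, the 4 for B cell genes and the 11 for myeloid surface and scavenger receptors had none. Among the integrin subunits, the adhesion receptors of cells to matrix and to each other, 1 of 11 probes was above background on all 8 arrays, and among the Toll-like receptors, which sense microbial molecules, 1 of 7.

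**Figure D1:**
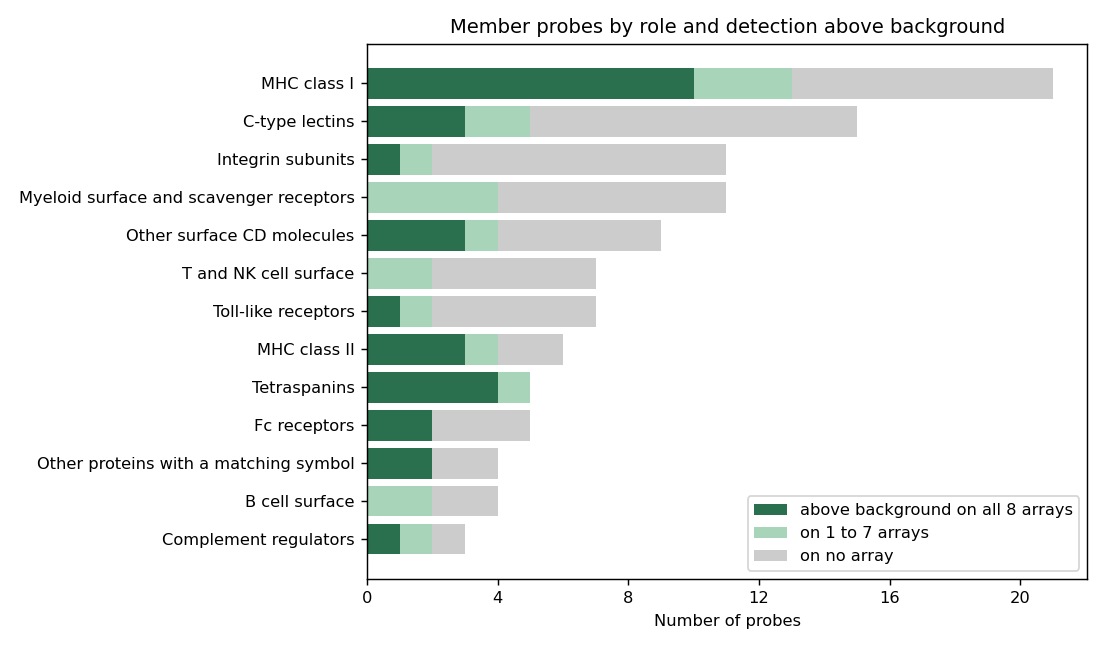
Number of member probes (horizontal axis) in each of the 13 roles, divided by detection: above background on all 8 arrays (dark green), on 1 to 7 arrays (light green) or on no array (grey). MHC class I holds the most detected probes, 10 of 21, and the T and NK cell, B cell and myeloid roles hold no dark green.

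A gene's probes did not always give the same answer. Of the 13 genes with 2 probes, only H2-T23 had both above background on all 8 arrays. H2-Ab1, H2-Q2, Clec1a and Tlr4 had 1 probe above background on all 8 arrays and another on none, and for 5 genes (Cd40, Cd109, Clec7a, Fcer2a and Itga11) both probes were on none.

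Comparing transgenic with wildtype livers, no member differed past the threshold. The limma fit on log2 signals (values under 16 units set to 16) tested 14759 probes, 73 of them members, with Benjamini-Hochberg adjustment over all of them: 0 members and 0 probes overall (0%) had an adjusted p under 0.05. At an unadjusted p under 0.05, 3 members had higher means in transgenic animals (4.11% of 73) against 3.23% of all tested probes, and 3 had lower means (4.11%) against 3.59%. Together these were 6 members (8.22%) against 6.82%. The groups did not overlap for 3 members that were higher (4.11%) and 1 that was lower (1.37%), against 1.73% and 1.83% of all tested probes, in all 4 members (5.48%) against 3.56%. The lower member was H2-Ke6, whose protein is not a leukocyte surface molecule. The median log2 fold change, transgenic minus wildtype throughout, was -0.036 over the 73 members and -0.015 over all tested probes. The 73 include probes above background on no array, among them Cd44, whose value is the members' median. Only 1 Cd44 reading, 17.7 units in wildtype animal 4, exceeded 16 units. That median therefore does not describe the detected members alone. The counts of members given above lie near those of the array as a whole. Every p-value here rests on the spread among these 8 animals alone.

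Among the 30 member probes above background on all 8 arrays, 9 had a higher and 21 a lower mean in transgenic livers, with a median of -0.064. Over the 7296 probes of the array detected likewise, 3309 had a higher and 3987 a lower mean (median -0.018). The lower means came from many roles, as the plot of log2 fold changes shows: all 3 class II probes, all 3 C-type lectin probes, all 4 tetraspanin probes and both Fc receptor probes, against 3 of 10 class I probes. With quantile normalization the split of the 30 became 12 higher and 18 lower, and with array medians aligned 11 and 19. Without transgenic animal 4 it was 12 and 18, with 1 of the 4 tetraspanin probes higher.

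**Figure D2:**
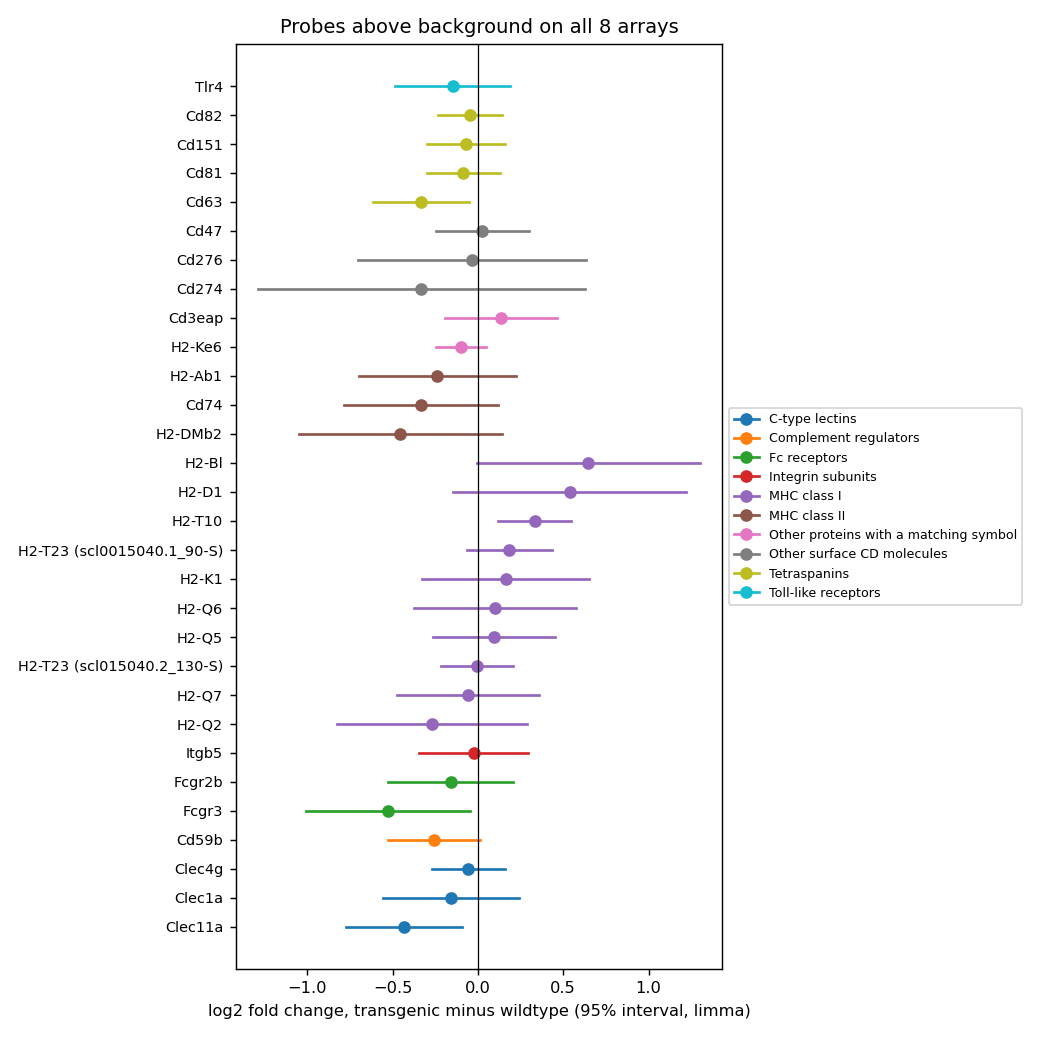
Log2 fold change of transgenic minus wildtype (horizontal axis, point) with the 95% interval of the limma fit (line) for each of the 30 member probes above background on all 8 arrays, coloured by role. H2-T10 at 0.33, Clec11a at -0.43, Fcgr3 at -0.53 and Cd63 at -0.33 have intervals that leave out 0, and none of them passed the adjusted threshold.

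Class I held more detected probes than any other role. H2-K1 and H2-D1 encode classical class I heavy chains, which carry peptide to the surface with the light chain beta-2-microglobulin, and the H2-Q, H2-T and H2-Bl genes encode further class I or class I-like chains. Promoter sequences are shown for both classical chains, because H2-K1 and H2-D1 are the class I members whose roles are best known and their windows share a stretch. A RefSeq table of build GRCm38.p6 gave a window from 250 bases before to 50 after the gene's start for 71 of the 95 genes. Capitals mark GGGATTCCC, a stretch of the kind bound by NF-kappa-B proteins, and CCAAT, both searched on both strands, where ATTGG is CCAAT on the other strand. H2-K1 has 2 start sites in the table and the first is shown.
H2-K1, chr17:34000298-34000597, minus strand: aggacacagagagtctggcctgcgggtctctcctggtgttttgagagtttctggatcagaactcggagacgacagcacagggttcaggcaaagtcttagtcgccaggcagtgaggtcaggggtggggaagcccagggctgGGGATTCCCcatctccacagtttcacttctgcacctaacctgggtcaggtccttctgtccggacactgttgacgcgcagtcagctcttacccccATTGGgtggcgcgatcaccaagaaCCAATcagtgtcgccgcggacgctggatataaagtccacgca
H2-D1, chr17:35262844-35263143, plus strand: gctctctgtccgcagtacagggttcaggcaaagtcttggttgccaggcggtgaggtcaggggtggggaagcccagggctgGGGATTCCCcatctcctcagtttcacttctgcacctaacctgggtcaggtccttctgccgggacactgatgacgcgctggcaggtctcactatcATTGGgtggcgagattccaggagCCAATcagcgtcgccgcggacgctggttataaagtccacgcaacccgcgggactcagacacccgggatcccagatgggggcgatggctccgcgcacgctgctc
The longer stretch lies in 116 of 32851 promoter windows (0.353%), among them those of H2-K1, H2-D1, H2-Q6 and H2-Q7 of the members. CCAAT is common, in 37.4% of all windows and in any window of 36 of the 71 member genes. A gene with several start sites has several windows, so these shares are not in like units. The marked stretches do not overlap each other. A match is a run of letters, not a measured site.

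H2-T10, a non-classical class I gene, had the smallest p among the members. Its probe read 269.7, 268, 244 and 252 units in transgenic animals 1 to 4 and 200.2, 234, 181 and 208 units in wildtype animals 1 to 4. All 4 transgenic animals lay above all 4 wildtype animals, with mean 258 ± 12.6 against 206 ± 21.7 units (SD, n = 4 per group). The log2 fold change was 0.33 ± 0.092 (SE, n = 4 per group), with a 95% interval from 0.12 to 0.55, and limma gave adjusted p = 0.583 (unadjusted 0.00723). Over the alternatives the adjusted p ranged from 0.307 to 0.849. An exact permutation test gave p = 0.0286, the smallest that 4 against 4 animals allow. Groups that do not overlap always give this value, so it adds nothing to the separation.

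H2-Bl, a class I gene, and H2-D1 varied across the animals in the same way. The H2-Bl probe read 377, 411, 229.9 and 261 units in transgenic animals 1 to 4 and 129.7, 179.9, 251 and 265 units in wildtype animals 1 to 4. That of H2-D1 read 96.6, 109.8, 59.7 and 92.6 units in transgenic animals 1 to 4 and 40.3, 48.4, 83.2 and 81.5 units in wildtype animals 1 to 4. In both, wildtype animals 1 and 2 were the lowest of the 8 and transgenic animals 1 and 2 the highest, and the groups overlapped. The H2-Bl log2 fold change was 0.65 ± 0.28 (SE, n = 4 per group), adjusted p 0.735, and that of H2-D1 0.54 ± 0.29 (SE, n = 4 per group), adjusted p 0.781, both by limma.

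The H2-Q2 probe, by contrast, was highest in the animals where those were lowest. It read 9301, 8354, 8138 and 10876 units in transgenic animals 1 to 4 and 13906, 14732, 6986 and 10117 units in wildtype animals 1 to 4. Wildtype animals 1 and 2 were the highest of the 8 and wildtype animal 3 the lowest, so the wildtype group spanned the whole transgenic range. Its log2 fold change was -0.27 ± 0.24 (SE, n = 4 per group), adjusted p 0.809 in limma, and ran from -0.49 without wildtype animal 3 to -0.13 without wildtype animal 2. A second H2-Q2 probe was at background on all arrays.

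Both probes of H2-T23, which encodes Qa-1, a class I-like molecule that NK cells and some T cells recognise, were detected on all arrays. Probe scl015040.2_130-S read 2993, 3023, 3316 and 2863 units in transgenic animals 1 to 4 and 3122, 3349, 2666 and 3135 units in wildtype animals 1 to 4. Probe scl0015040.1_90-S read 2535, 2870.0, 2921 and 2754 units in transgenic animals 1 to 4 and 2239, 2951, 2367 and 2252 units in wildtype animals 1 to 4. Groups overlapped at both, with log2 fold changes of -0.0063 (95% interval from -0.22 to 0.21) and 0.18 (95% interval from -0.066 to 0.43), and the sign of the first turned with array scaling.

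The remaining detected class I probes also overlapped between groups. H2-K1 read 879, 976, 1288 and 784 units in transgenic animals 1 to 4 and 891, 1182, 680.4 and 771 units in wildtype animals 1 to 4, a log2 fold change of 0.16 ± 0.21 (SE, n = 4 per group). H2-Q5 read 1949.9, 2548, 2365 and 2267 units in transgenic animals 1 to 4 and 2484, 2434, 1626 and 2085 units in wildtype animals 1 to 4, a log2 fold change of 0.095 ± 0.15 (SE, n = 4 per group). H2-Q6 ranged from 78.9 to 142 units and H2-Q7 from 73.0 to 126 units over the 8 animals, with log2 fold changes of 0.10 and -0.058. Over the 10 class I probes 7 had higher and 3 lower means, with a median log2 fold change of 0.13, and the split was 8 and 2 with quantile normalization or aligned medians. Leaving out single animals moved that median between 0.029 without wildtype animal 3 and 0.23 without wildtype animal 2, and the split was 6 and 4 without wildtype animal 3 or transgenic animal 2. Of the other 11 class I probes, those of H2-T24 and H2-Q8 and a probe of H2-T22 were above background on 1 or 2 arrays and 8 on none, among them H2-Q1, H2-T3, H2-T18, H2-D4, H2-M10.2 and H2-M10.6. Probe sequences were not used here, and class I genes are close relatives, so signal shared between their probes was not tested. B6 and DBA mice are known to differ in their MHC alleles, and which alleles each animal carried was not tested.

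**Figure D3:**
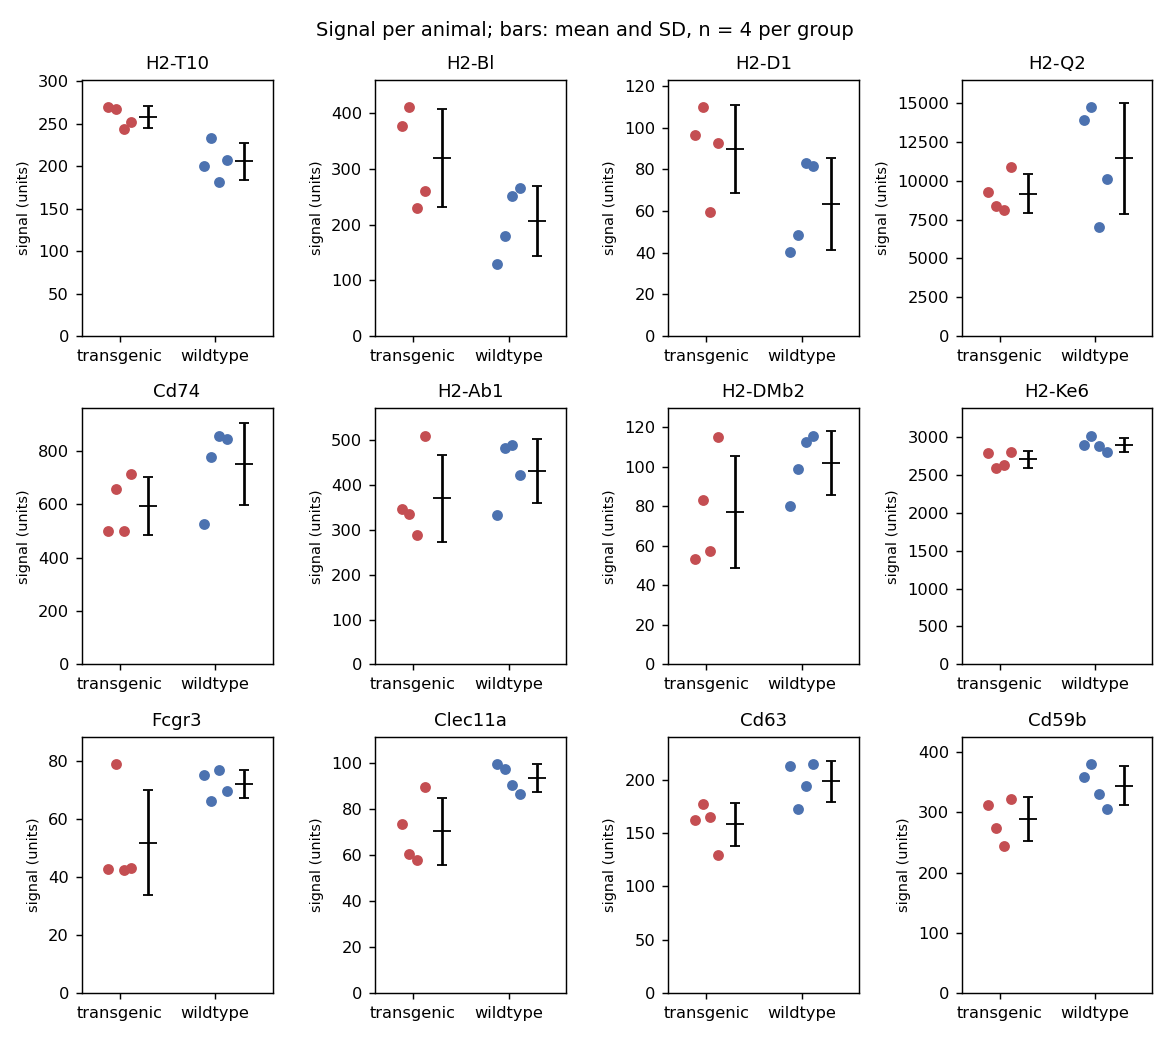
Signal in arbitrary units (vertical axis, starting at 0) of 12 member probes in the 4 transgenic and the 4 wildtype animals, 1 point per animal in order of animal number, with the mean and SD of each group (n = 4) beside the points. H2-T10 and H2-Ke6 are the only panels in which the groups do not overlap, and transgenic animal 2 stands apart in the Fcgr3 panel.

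Class II genes were detected, and their means were lower in transgenic livers without passing the test. Cd74, the invariant chain that guides class II molecules to the compartment where peptide is loaded, read 499.9, 659, 499 and 713 units in transgenic animals 1 to 4 and 527, 776, 857 and 846 units in wildtype animals 1 to 4. H2-Ab1, a class II beta chain, read 347, 335, 289.8 and 511 units in transgenic animals 1 to 4 and 334, 482, 489 and 423 units in wildtype animals 1 to 4. H2-DMb2, a beta chain of the peptide-loading factor H2-DM, read 53.3, 83, 57.3 and 115 units in transgenic animals 1 to 4 and 79.9, 98.7, 113 and 116 units in wildtype animals 1 to 4. In each gene the groups overlapped: transgenic animal 4 was the highest of its group, and wildtype animal 1 lay within the transgenic range. The log2 fold changes were -0.33 ± 0.20 (SE, n = 4 per group) for Cd74, -0.24 ± 0.20 (SE, n = 4 per group) for H2-Ab1 and -0.45 ± 0.26 (SE, n = 4 per group) for H2-DMb2, with adjusted p of 0.781, 0.809 and 0.781 in limma. The 95% interval for Cd74 ran from -0.79 to 0.12. The 3 means stayed lower under quantile normalization, with a median log2 fold change of -0.31 against -0.33, and without single animals, from -0.50 without wildtype animal 1 to -0.26.

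H2-DMb1, the other beta chain of H2-DM, was above background on 5 arrays. It read 24.6, 42, 29.4 and 67.3 units in transgenic animals 1 to 4 and 11.8, 43.5, 69.3 and 53.4 units in wildtype animals 1 to 4, so the groups overlapped widely, and the sign of its log2 fold change of -0.083 turned under 5 of the alternatives. H2-DMa, the alpha chain of H2-DM, and a second H2-Ab1 probe were at background on all arrays.

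The promoters of both H2-DM beta chains are shown because the results for these genes turn on class II genes that varied together, and class II promoters are known for conserved boxes, of which the Y box holds an inverted CCAAT. Capitals mark ATTGG, which is CCAAT on the other strand, and GATGATGC, a stretch picked because both windows hold it. Build, window and source are as for the class I promoters.
H2-DMb1, chr17:34152941-34153240, plus strand: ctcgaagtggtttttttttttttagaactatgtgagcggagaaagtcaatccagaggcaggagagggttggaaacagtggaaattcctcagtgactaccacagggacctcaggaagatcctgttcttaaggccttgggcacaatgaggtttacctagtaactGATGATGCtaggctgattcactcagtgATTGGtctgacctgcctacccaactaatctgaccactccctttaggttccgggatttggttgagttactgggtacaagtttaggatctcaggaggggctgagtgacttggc
H2-DMb2, chr17:34144999-34145298, plus strand: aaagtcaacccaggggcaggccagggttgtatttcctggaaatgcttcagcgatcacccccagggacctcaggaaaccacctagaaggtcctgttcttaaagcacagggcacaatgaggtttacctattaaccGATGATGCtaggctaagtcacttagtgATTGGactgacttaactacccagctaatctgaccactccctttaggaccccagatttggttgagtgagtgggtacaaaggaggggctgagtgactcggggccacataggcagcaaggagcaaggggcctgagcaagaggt
GATGATGC lies, on either strand, in 231 of 32851 windows (0.703%), and among the 71 member genes in those of H2-DMb1, H2-DMb2 and Cd300ld3. The marked stretches do not overlap each other.

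Across the 8 animals the class II probes varied together. The heat map of deviations shows all 4 class II probes below the mean of the 8 animals in transgenic animals 1 and 3 and in wildtype animal 1. By median deviation, transgenic animal 4 and wildtype animals 3 and 4 were the highest. Taking each animal's median deviation over the 4 class II probes on the log2 scale, transgenic animals 1 to 4 stood at -0.53, -0.023, -0.42 and 0.40, and wildtype animals 1 to 4 at -0.28, 0.22, 0.39 and 0.40. All 6 pairs of class II probes had positive Pearson correlations, from 0.74 to 0.91 with a median of 0.83, and the median within groups was also 0.83.

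**Figure D4:**
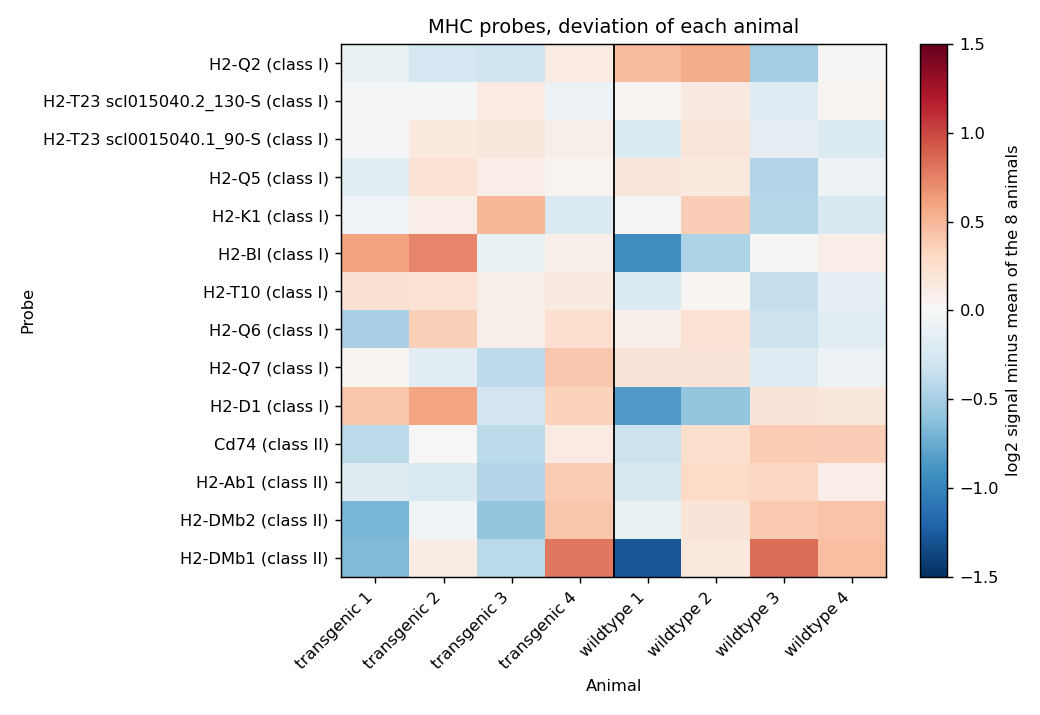
Deviation of each animal's log2 signal from the mean of the 8 animals (colour) for the 10 class I and 4 class II probes above background on at least 4 arrays (rows), with transgenic animals left and wildtype animals right of the line (columns). The class II probes lie below the mean in transgenic animals 1 and 3 and in wildtype animal 1, and H2-Bl and H2-D1 share blue in wildtype animals 1 and 2.

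Of 91 pairs among these 14 MHC probes, 1 passed Benjamini-Hochberg adjustment of exact permutation p-values, and the pairs were looked at after the values had been seen. H2-Bl and H2-D1 had r = 0.94 over 8 animals (exact permutation p = 9.92e-05, adjusted p = 0.00903) and a Spearman rho of 0.93 (exact permutation p = 0.00223, adjusted p = 0.203). Without the 2 animals farthest from the median of H2-Bl r was 0.86, and within groups it was 0.92. Cd74 and H2-DMb2 had r = 0.91 (exact permutation p = 0.00149, adjusted p = 0.0677) and rho = 0.86 (exact permutation p = 0.0107, adjusted p = 0.233), with r = 0.84 without the 2 farthest animals and 0.88 within groups.

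Class I probes did not vary as a block. Over their 45 pairs 29 correlations were positive, with a median of 0.26 and a range from -0.67 to 0.94. Between class I and class II probes 16 of 40 correlations were positive, with a median of -0.11, but within groups 22 were positive with a median of 0.035, so no direction held. Of the pooled values 0 of 40 had an unadjusted exact permutation p under 0.05. The probes share arrays, so array-wide shifts enter all of these values.

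**Figure D5:**
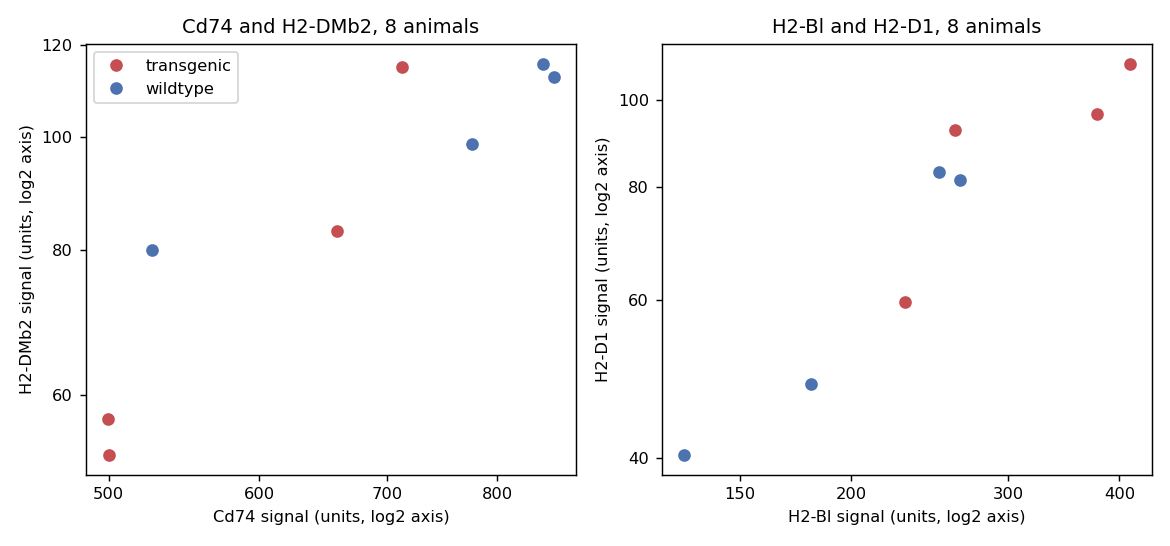
Signal of H2-DMb2 against Cd74 (left) and of H2-D1 against H2-Bl (right) in arbitrary units on log2 axes, 1 point for each of the 8 animals, coloured by group. Points of both groups run along the same rising line in each panel, with r = 0.91 on the left and 0.94 on the right.

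Fc receptors bind the constant part of antibodies. Fcgr3, an activating receptor for IgG on myeloid and NK cells, read 42.8, 78.8, 42.5 and 42.9 units in transgenic animals 1 to 4 and 75.1, 66.2, 76.8 and 69.5 units in wildtype animals 1 to 4. Of the transgenic animals, 3 lay between 42.5 and 42.9 units, under every wildtype animal, while transgenic animal 2 was the highest of the 8. The log2 fold change was -0.53 ± 0.21 (SE, n = 4 per group), with adjusted p = 0.70 (unadjusted 0.0355) by limma. Without transgenic animal 2 it was -0.75 with an adjusted p of 0.118, still short of the threshold. Fcgr2b, the inhibitory IgG receptor that sinusoidal endothelium carries in abundance, read 321, 362, 445 and 466 units in transgenic animals 1 to 4 and 533, 367, 455 and 423 units in wildtype animals 1 to 4. Its groups overlapped, with a log2 fold change of -0.16 ± 0.16 (SE, n = 4 per group). The 3 probes of the IgE receptor genes Fcer1a and Fcer2a were on none of the arrays above background.

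C-type lectins bind sugars or related ligands on microbes and cells. Clec4g, a lectin of liver sinusoidal endothelium, read 3592, 3485, 3229 and 3924 units in transgenic animals 1 to 4 and 4024, 3473, 3409.9 and 3898 units in wildtype animals 1 to 4. The groups overlapped, with a log2 fold change of -0.057 ± 0.092 (SE, n = 4 per group) and a 95% interval from -0.27 to 0.16. Clec11a, which encodes a secreted growth factor with a lectin domain, read 73.3, 60.2, 57.6 and 89.7 units in transgenic animals 1 to 4 and 99.5, 97.4, 90.6 and 86.6 units in wildtype animals 1 to 4. Transgenic animals 1, 2 and 3 lay under all wildtype animals and transgenic animal 4 among them, and the log2 fold change was -0.43 ± 0.15 (SE, n = 4 per group), with limma's adjusted p = 0.64 (unadjusted 0.0187). Clec1a ranged from 41.7 to 69.7 units, with a log2 fold change of -0.16. Clec4n, a myeloid receptor for fungal sugars, was above background on 5 arrays and Clec5a on 4. Clec7a, the beta-glucan receptor, was on none with either probe, as were Clec2e, Clec2h, Clec2i, Clec2m, Clec3b, Clec4a1 and Clec4d.

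Among the tetraspanins, Cd63, found on late endosomes and secreted vesicles, read 162, 177, 165 and 129 units in transgenic animals 1 to 4 and 213, 173, 194 and 215 units in wildtype animals 1 to 4. Only the highest transgenic animal, number 2, reached into the wildtype range, and the log2 fold change was -0.33 ± 0.12 (SE, n = 4 per group), adjusted p = 0.671 (unadjusted 0.0266) in limma. Cd81, which pairs with many membrane receptors, read 10890.1, 8341, 9029 and 9719 units in transgenic animals 1 to 4 and 10191, 10287, 10057 and 9583 units in wildtype animals 1 to 4. The groups overlapped, with a log2 fold change of -0.085 ± 0.093 (SE, n = 4 per group) and a 95% interval from -0.30 to 0.13. Cd82 ranged from 1222 to 1489.6 units and Cd151, a partner of integrins, from 570.1 to 747 units, with log2 fold changes of -0.048 and -0.070. Spread was small in this group: the median within-group SD on the log2 scale was 0.13 over the 4 probes, 0.17 over all 7296 detected probes, 0.29 over the 10 class I and 0.31 over the 3 class II probes. Cd53, a tetraspanin of leukocytes, was above background on 1 array.

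Cd59b, a membrane inhibitor of the complement attack complex, read 313, 273, 244 and 323 units in transgenic animals 1 to 4 and 359.5, 380.1, 331 and 306 units in wildtype animals 1 to 4. The groups overlapped, with a log2 fold change of -0.26 ± 0.12 (SE, n = 4 per group), adjusted p = 0.745 (unadjusted 0.0569) in limma. Cd55, which breaks up complement convertases, was above background on 6 arrays, between 28.2 and 42.7 units, and Cd55b on none.

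Of the other surface molecules, Cd47, the signal that restrains engulfment by macrophages, read 846, 786, 927 and 684 units in transgenic animals 1 to 4 and 784, 703, 899.8 and 794 units in wildtype animals 1 to 4, and the groups overlapped around a log2 fold change of 0.025 ± 0.12 (SE, n = 4 per group). Cd274 (PD-L1), a ligand that restrains T cells, read 70.9, 67.9, 38.9 and 168 units in transgenic animals 1 to 4 and 96, 99.7, 117 and 70.4 units in wildtype animals 1 to 4. Transgenic animal 3 was the lowest and transgenic animal 4 the highest of the 8, and the log2 fold change was -0.33 ± 0.41 (SE, n = 4 per group), -0.017 without transgenic animal 3 and -0.72 without transgenic animal 4. Cd276, a related ligand, ranged from 43.3 to 97.4 units. Cd200 was above background on 1 array, and Cd44, Cd24a, Cd109 and Cd320 were on no array above background.

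Itgb5, which joins the alpha-v integrin chain to bind vitronectin, was the integrin subunit detected on all 8 arrays. It read 318, 385, 365 and 399 units in transgenic animals 1 to 4 and 340.4, 399.8, 455 and 309 units in wildtype animals 1 to 4, with overlapping groups and a log2 fold change of -0.025 ± 0.14 (SE, n = 4 per group), whose sign turned under 5 alternatives. Itgb2l was above background on 2 arrays. The leukocyte integrin chains Itgal, Itgam and Itga4, the platelet chain Itga2b and the chains Itgav, Itga6, Itga11 and Itgb4 were on no array above background. Tlr4, the receptor for bacterial lipopolysaccharide, read 60.3, 48.5, 41.5 and 52 units in transgenic animals 1 to 4 and 61.6, 62.4, 45.8 and 54.2 units in wildtype animals 1 to 4, with a log2 fold change of -0.15 ± 0.15 (SE, n = 4 per group) and overlapping groups. Tlr12, a mouse receptor for a parasite protein, was above background on 5 arrays and read 10.7, 53.3, 2 and 48.7 units in transgenic animals 1 to 4 and 47.5, 37.2, 50.3 and 30.4 units in wildtype animals 1 to 4. Transgenic animals 1 and 3 were the lowest, and Tlr1, Tlr8, Tlr11 and Tlr13 were on no array above background.

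Lymphocyte and myeloid surface genes lay at or near background. Cd3e and Cd8b1, chains of the T cell receptor complex and its co-receptor, and Cd69, an early activation marker, were on no array above background, as were Cd40, Cd52, Cd177, Cd209b, Cd226, Cd300lb, Cd300ld3 and the fatty acid transporter Cd36. Cd68, a macrophage lysosomal protein, Cd209c, Cd300c, a probe of Cd200r2 and a probe of Cd247, a signalling chain of the T cell receptor, were above background on 1 or 2 arrays. Cd72, a B cell co-receptor, read 29.4, 39, 4.10 and 18.6 units in transgenic animals 1 to 4 and 11.1, 37.8, 33.5 and 40 units in wildtype animals 1 to 4 and was above background on 4 arrays. Cd160, a receptor of NK and some T cells, read 45, 30.7, 34 and 30.3 units in transgenic animals 1 to 4 and 28.6, 27.7, 24.5 and 17.8 units in wildtype animals 1 to 4. All 4 transgenic animals lay above all wildtype animals, but the probe was above background on 2 transgenic arrays and on 0 wildtype arrays. At adjusted p = 0.687 (unadjusted 0.028) in limma it did not pass. Cd180, a B cell relative of the Toll-like receptors, read 32.4, 25.8, 26.3 and 29 units in transgenic animals 1 to 4 and 25.2, 19.6, 24.8 and 18.7 units in wildtype animals 1 to 4. These groups did not overlap either, with adjusted p = 0.663 (unadjusted 0.0237) in limma, and the probe was above background on 1 array. Cd160 and Cd180 fall outside the rule for named genes and were chosen after their values were seen.

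Of the genes with a matching symbol only, H2-Ke6 read 2788, 2586, 2626 and 2797 units in transgenic animals 1 to 4 and 2886, 3013, 2873 and 2798 units in wildtype animals 1 to 4. Every transgenic animal lay below every wildtype animal, by 1 unit between the nearest. The log2 fold change was -0.10 ± 0.063 (SE, n = 4 per group), with adjusted p = 0.791 (unadjusted 0.155) in limma and an exact permutation p of 0.0286. That permutation p follows from the groups not overlapping and adds nothing to it. Its within-group SD on the log2 scale lay at percentile 1.08 of the detected probes of the array. Cd3eap ranged from 146 to 224 units with overlapping groups.

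Other genes of the same pathways gave 0 calls after adjustment in limma. Of 15 genes that make or load class I peptides, 6 were tested, 3 with higher and 3 with lower means. Erap1, counted among the lower, was above background on 0 arrays, and Tapbp, among the higher, on 1. The proteasome subunits Psmb8 and Psmb10 of the immune type, with mean 98.3 ± 27.1 against 82.2 ± 6.73 units (SD, n = 4 per group) and mean 935 ± 71.2 against 911 ± 131 units (SD, n = 4 per group), overlapped between groups. So did the proteasome activators Psme1, with a log2 fold change of -0.029, and Psme2, above background on 4 arrays, with -1.48. Of 11 genes for class II control and antigen breakdown, 6 were tested, 3 higher and 3 lower: Ctsb, a lysosomal protease, Ifi30, a lysosomal thiol reductase, and Rfxap, a class II promoter factor, had log2 fold changes of 0.054, 0.24 and -0.019. Ctsl, another lysosomal protease counted among the higher, was above background on 0 arrays, so no difference was measured for it.

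Of 20 interferon response genes 8 were tested, 3 with higher and 5 with lower means. Of the lower, Iigp1 was above background on 0 arrays and Gbp2 on 2. At an unadjusted p under 0.05 in limma, 2 of the 8 tested had higher means, against 3.23% of all tested probes. Irf1, a transcription factor that acts on class I and other interferon-induced genes, read 508, 579.5, 532 and 645 units in transgenic animals 1 to 4 and 463, 402, 386 and 489 units in wildtype animals 1 to 4. All transgenic animals lay above all wildtype animals, with a log2 fold change of 0.38 ± 0.11 (SE, n = 4 per group), adjusted p = 0.606 (unadjusted 0.01) in limma. Such a separation, higher in transgenic animals, held for 1.73% of all tested probes. The log2 fold change of Oas1a, an antiviral enzyme, was 0.32 (adjusted p 0.726 in limma), and that of Igtp, an interferon-induced GTPase, 0.0074.

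Of 27 genes of Toll-like receptor signalling 8 were tested, 4 with higher and 4 with lower means. At an unadjusted p under 0.05 in limma, 1 of the 8 tested had a lower mean, against 3.59% of all tested probes. Ikbkg, the regulatory subunit of the kinase that releases NF-kappa-B, read 104, 114, 109 and 95.4 units in transgenic animals 1 to 4 and 163, 149, 131 and 147 units in wildtype animals 1 to 4. The groups did not overlap, with a log2 fold change of -0.48 ± 0.092 (SE, n = 4 per group), adjusted p = 0.418 (unadjusted 0.000892) in limma. Separation with lower values in transgenic animals held for 1.83% of all tested probes. Irak1, Ikbkb and Tollip, further parts of this pathway, had log2 fold changes of 0.26, -0.063 and -0.024. Of 18 genes acting behind Fc and lectin receptors, 2 were tested: Hcst had a log2 fold change of -0.10, and Lcp2 was above background on 1 array, with most values at the floor. Of 25 genes of integrin adhesion, 5 were tested, with 0.10 for Zyx, -0.00060 for Rap1b and -1.07 for Ilk, which was above background on 2 arrays.

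Marker lists of the cells that could carry these molecules were measured beside the members. Of 11 pan-leukocyte genes 6 had a probe, with a summed signal of 148 to 222 units in transgenic and 155 to 311 units in wildtype animals. Ptprc (CD45), carried by nearly all leukocytes, was above background on no array, and Srgn and Cotl1 on all 8. Of the 4 tested probes 3 had lower means in transgenic animals and 1 a higher mean, with a median log2 fold change of -0.35: Lcp1 -0.79 (above background on 5 arrays), Cotl1 -0.39, Cybb -0.31 (on 4 arrays) and Srgn 0.044. Their adjusted p in limma ranged from 0.781 to 0.939, and their part in the lower class II means was not tested. Of 18 Kupffer cell and macrophage genes 5 had a probe, summing to 543 to 964 units in transgenic and 551 to 961 units in wildtype animals. Csf1r, C1qa and C1qb were above background on all 8 arrays, Cd68 on 1 and Lyz2 on none. Of the 4 tested, 2 had higher and 2 lower means. Their log2 fold changes were 0.17 for Csf1r, -0.29 for C1qa, -0.043 for C1qb and 0.19 for Cd68. Adjusted p in limma ranged from 0.809 to 0.967 over these 4. The 3 T and NK cell markers were on none, and of 7 monocyte and neutrophil markers 5 were on none. Of 3 B cell and plasma cell markers Ighm was on all 8. The 2 platelet markers were on none, and of 2 bile duct markers Spp1 was on all 8. The dendritic cell list, with 3 probes, holds H2-Ab1 and Cd74 themselves. Its other probe, that of Zbtb46, was above background on all 8 arrays, with a log2 fold change of 0.20 (adjusted p 0.809 in limma).

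Endothelial markers were detected more fully: of 18 genes 8 had a probe, 6 of them above background on all 8 arrays, including Clec4g and Fcgr2b themselves. Their summed signals ran from 4945 to 5692 units in transgenic and from 5101 to 5918 units in wildtype animals. Of the 8 tested probes 2 had higher and 6 lower means, with Emcn, a sialomucin of endothelium, at -0.48 (unadjusted p 0.0314, adjusted p 0.697 in limma). Ushbp1, among the lower, was above background on 1 array. Of 8 stellate cell probes 3 were above background on all 8 arrays. Their log2 fold changes were -0.46 for Lrat, which makes stored retinyl esters (unadjusted p 0.00767, adjusted p 0.592 in limma), -0.027 for Reln and -0.032 for Dcn. The Lrat groups did not overlap, with lower values in transgenic animals, as held for 1.83% of all tested probes. All 4 erythroid probes had lower means, and their summed signal ran from 9659 to 10825 units in transgenic and from 11342 to 25126 units in wildtype animals, without overlap. Most of that sum was Hba-a1, with mean 9758 against 18310 units, and the groups overlapped at the other erythroid probes. Adjusted p of the 4 probes ranged from 0.592 for Hba-a1 to 0.809 for Car1 in limma. The part of these markers in the values of the member genes was not tested.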

How the data were processed

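Liver RNA (100 ng per animal) was amplified and biotinylated, per the labels. BeadStudio 1.5.1.3 is named in the submitters' processing notes. The values deposited by the authors are intensity values per probe on a linear scale, background-subtracted as their negative values show; the method, and any scaling of arrays, are not stated in these sources. A second table's 64 value columns carry names that no label gives and were not used.

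Values under 16 were set to 16 and log2 was taken from the deposited values without further normalization. Probes with a mean log2 above the lower quartile were tested (14759 of 24048) with limma 3.58.1 in R 4.3.3 (lmFit, eBayes, two-sided, Benjamini-Hochberg, threshold 0.05). That quartile equalled the floor of 16 units, so a single value above 16 was enough for a probe to be tested. The code was tested on simulated data. Of 9523 numbered identifiers 8884 were in the RefSeq gene table.

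The members, roles, gene lists and tests were chosen with earlier results of these data known. Named are members of unadjusted p under 0.05 or without overlap that were above background in all arrays of a group, the 12 brightest, the brightest detected of each role and the 6 of largest range. Of pathway lists, the 2 of smallest p and the 2 brightest are named. H2-Q6, H2-Q7 and other genes beyond this were chosen after their values were seen. Alternatives were other floors, offsets, scalings, filters, variance models and leaving out each animal. Array number limits the precision.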

Additional observations from a re-analysis of the deposited data

Results flagged for a closer look

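Transgenic animal 2 stood apart from its group at the Fcgr3 probe, with 78.8 units against 42.5 to 42.9 units in the other transgenic animals. Its gap to the nearest of them was 0.989 of the group's range, past Dixon's critical value for 4 samples. This was 1 case in 52 groups of 4 animals (26 probes in both groups), and chance gives about 1 in 20.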

How the results depend on the processing

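No member passed the adjusted threshold under any of the 19 alternative fits, and the smallest adjusted p of a member was 0.118. Over all tested probes the count of calls, 0, became 1 with quantile normalization, 3 with normexp background correction at an offset of 50, 2 with a trended and robust prior and 1 with array weights, and ranged from 0 to 7 when single animals were left out, 7 without transgenic animal 4. The median log2 fold change of the tested members, -0.036, was -0.014 with log2(value + 50), -0.00033 with quantile normalization, -0.014 with normexp, 0 without a filter and -0.057 for probes above 16 units on all 8 arrays, and ranged from -0.061 to -0.0078 with single animals left out. With 4 against 4 animals an exact permutation p under 0.05 arises only where the groups do not overlap. In the main fit that held for 3.56% of all tested probes. Named members with an exact permutation p under 0.05 numbered 2, and 3 under normexp. With single animals left out it was 0 to 2, and H2-T10 had an exact permutation p of 0.0286 without any single wildtype animal and of 0.0571 without any single transgenic animal. The H2-T10 groups did not overlap in any of these. The 2 values differ only in whether another split of the then unequal groups was as extreme, not in separation. These alternatives of the permutation test were chosen after seeing the data. Among all probes of unadjusted p under 0.05 the share higher in transgenic animals was 47.3%, and 61.1% with quantile normalization.

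Of 483 alternative log2 fold changes of named probes 461 kept their sign, and 22 turned. H2-DMb1 was 0.026 with a floor of 8 units and -0.52 to 0.18 without single animals. The first H2-T23 probe was 0.026 with quantile normalization, 0.021 with medians aligned, 0.015 with array weights and -0.072 to 0.038 without single animals. Itgb5 was 0.013, 0.0017 and -0.11 to 0.072 likewise, apart from array weights. With single animals left out Cd47 ran from -0.042 to 0.10, Cd82 from -0.078 to 0.017 and H2-Q5 from -0.035 to 0.17. For sign changes the cause was not tested. No paired analysis was possible because the labels carry no numbers that pair animals. Without single animals the log2 fold change also moved widely for H2-K1 (0.023 to 0.31), Cd151 (-0.12 to -0.0032), Clec4g (-0.11 to -0.011), Fcgr2b (-0.25 to -0.062), Tlr12 (-0.81 to -0.23) and Cd72 (-0.61 to -0.11). Noise limits of 25.4 to 37 units, by array, bound what dim probes can show.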

Other observations

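Wildtype animals 1 and 2 read high together at several probes that were dim in most other animals, a set chosen after the values were seen. H2-Q8, a class I gene of the Q region, read -4.10, -7.40, 3.20 and -5.90 units in transgenic animals 1 to 4 and 37.6, 81, -3.80 and 1.20 units in wildtype animals 1 to 4. Psme2, a proteasome activator subunit, read -1.90, 9.60, 6.50 and 68.7 units in transgenic animals 1 to 4 and 119, 199, 17.5 and 41.1 units in wildtype animals 1 to 4, Ilk, a kinase that links integrins to actin, -8.90, 6, 21.7 and 16.1 units in transgenic animals 1 to 4 and 50.5, 136, -1.90 and 3.40 units in wildtype animals 1 to 4, and Lcp1, the leukocyte actin-bundling protein, 39.1, 14.3, 21.8 and 46.4 units in transgenic animals 1 to 4 and 57, 140.3, 20.2 and 35.3 units in wildtype animals 1 to 4. At each of these probes the highest 2 of the 8 animals were wildtype animals 2 and 1. They were also the highest 2 at Car1 of the erythroid list, with 236 and 285 units in wildtype animals 1 and 2. At Pecam1 of the endothelial list they were again the highest, with 130.7 and 99.4 units. The same animals were the highest at H2-Q2 and the lowest at H2-Bl and H2-D1. Of these probes 0 passed the adjusted threshold in limma.

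Serpina1e, a hepatocyte antiproteinase gene, read 20414, 409, 26511 and 22061 units in transgenic animals 1 to 4 and 26523, 24586, 25328 and 33464 units in wildtype animals 1 to 4. Transgenic animal 2, which was also the highest of its group at Fcgr3, lay far below the other animals.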
